A study of Mus musculus with 6 samples.

Results

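The bacterial sensors of the crypt were read as 10 genes chosen by exact gene symbol among the 17526 genes of the count table: the Toll-like receptors Tlr2, Tlr3, Tlr4 and Tlr5, their adaptor Myd88, the cytosolic sensors Nod1 and Nod2 with the kinase Ripk2, and the inflammasome pair Nlrp6 and Pycard. RNA was taken from crypts of the mouse small intestine, which house stem cells, their dividing progeny and Paneth cells. The Fpr2 VKO group held 3 libraries whose genotype label is an intestinal epithelial knockout of Fpr2, and the Fpr2 f/f group held 3 libraries from mice with the floxed gene, whose genotype label is WT. Fpr2 encodes formyl peptide receptor 2, itself a receptor for bacterial and mitochondrial formylated peptides. The labels used here do not state what drives the recombination, the age or sex of the mice, or whether each library is a different animal. The p-values therefore reflect variation from library to library that may be technical only.

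Toll-like receptors are membrane proteins that bind microbial products and recruit adaptors through a shared cytoplasmic domain. Most of them signal through Myd88 to the transcription factor NF-kB, while Tlr3, which binds double-stranded RNA in endosomes and is thus not strictly a bacterial sensor, uses another adaptor, Ticam1. Nod1 and Nod2 detect peptidoglycan fragments in the cytosol and signal through Ripk2, and inflammasome sensors such as Nlrp6 use the adaptor Pycard (also called ASC) to activate caspase-1. In the mouse small intestine Nod2 and Tlr5 have been tied to Paneth cells, and Nlrp6 to the epithelium and its goblet cells.

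No sensor passed the test over all genes between Fpr2 VKO and Fpr2 f/f crypts. Of the 10 genes 9 had enough reads to test, and Tlr4 did not. By edgeR's quasi-likelihood test with Benjamini-Hochberg adjustment 0 of the 9 were called at an adjusted p under 0.05, where 0.0155% of the 12943 genes tested were called (0.00773% higher and 0.00773% lower in Fpr2 VKO). DESeq2 also called 0 of the 9, with 2.69% of genes called by that tool (0.299% higher and 2.4% lower), and limma-voom called 0. At an unadjusted edgeR p under 0.05 stood 1 of the 9, Nod1, against 13.7% of all tested genes (4.09% higher and 9.63% lower in Fpr2 VKO). The 9 genes had a median log2 fold change of 0.021, with 5 positive and 4 negative, and all tested genes had a median of -0.013. The intervals around these values are wide, so a missed threshold does not show equal levels.

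Facts of the whole series that touch these results are few. Total estimated counts per library ran between 11108511 and 16859902. The lowest were in Fpr2 f/f 1 and 3, at 11108511 and 12075398. Fpr2 f/f 2 held 16695304 counts, and each Fpr2 VKO library held 16542933 or more. Between groups the two-sided exact permutation p was 0.2. With 3 libraries against 3 no p below 0.1 is possible, so that test could not show a difference. The genotypes were not checked on the targeted gene, as Fpr2 was not analysed here. Epithelial markers were high in every library, with a summed level of 11350 to 12998 CPM (counts scaled to library size with TMM normalisation) over 8 genes in Fpr2 VKO libraries and 9730 to 13493 CPM in Fpr2 f/f libraries. A list of 13 Paneth cell genes summed to 27487 to 42066 CPM in Fpr2 VKO libraries and 81278 to 160510 CPM in Fpr2 f/f libraries, and a list of 11 goblet cell genes to 8196 to 12874 CPM in Fpr2 VKO libraries and 13699 to 20076 CPM in Fpr2 f/f libraries. The clock gene Dbp, known from earlier results of these data to set libraries apart, stood at 4.46, 23.8 and 25.6 CPM in Fpr2 VKO libraries 1, 2 and 3, against 24.98, 6.82 and 44.2 CPM in Fpr2 f/f libraries 1, 2 and 3. Arntl, whose product drives Dbp, ran the other way, at 34.0, 11.4 and 5.93 CPM in Fpr2 VKO libraries and 12.0, 27.8 and 7.48 CPM in Fpr2 f/f libraries. Fpr2 VKO 1 and Fpr2 f/f 2 thus stood apart from the other 4 libraries on Dbp and Arntl, and likewise on Per3, Ciart and Npas2. They did not on a further clock gene, Nr1d1, at 46.8, 61.2 and 30.8 CPM in Fpr2 VKO libraries and 69.5, 66.5 and 71.4 CPM in Fpr2 f/f libraries. In bulk samples, fewer cells of a type and less RNA per cell cannot be told apart.

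Per length of transcript, the inflammasome pair lay far above the receptors. Pycard averaged 91.4 CPM per kilobase over the 6 libraries (range 53.5 to 129) and Nlrp6 averaged 88.9 CPM per kilobase (range 72.4 to 109), and their ranges overlapped. GENCODE's longest Pycard transcript, of 3800 bases, runs past the RefSeq gene, which spans 2495 bases. Over that span Pycard averaged 139 CPM per kilobase (range 81.5 to 197). The span is a genomic length that includes any introns, not the length of a spliced transcript. A shorter transcript would put Pycard higher, so whether its range overlaps that of Nlrp6 is not settled here. Myd88 followed at 14.2 CPM per kilobase and Tlr3 at 4.99 CPM per kilobase, each with a range clear of its neighbours in the order. Below them Nod1, Tlr2, Ripk2, Tlr5 and Nod2 averaged 2.49, 1.78, 1.27, 0.521 and 0.426 CPM per kilobase, and each overlapped the next in range. Tlr4 was lowest, at 0.0780 CPM per kilobase, with a range clear of Nod2. With the longest transcript that carries a RefSeq accession in place of the longest transcript the order was the same. For Pycard and Nlrp6 these are the same length, so this could not change their values.

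**Figure D1:**
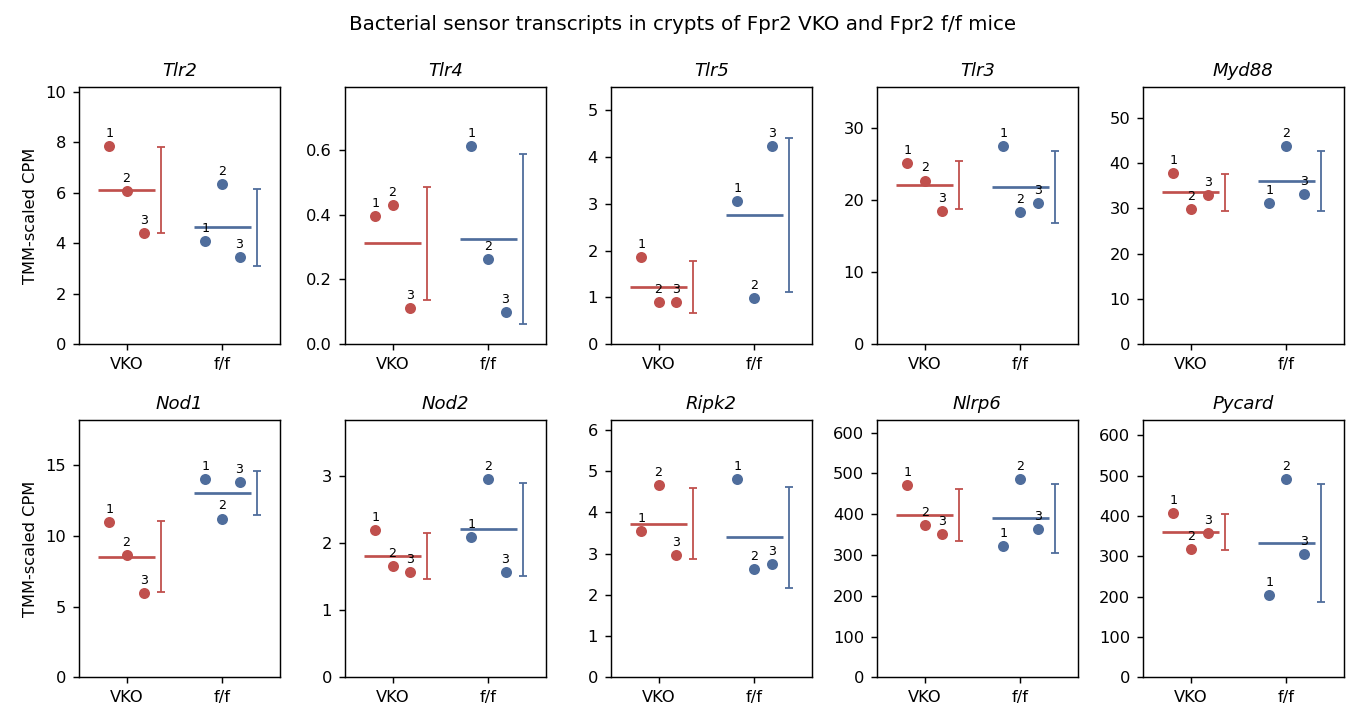
TMM-scaled CPM (y axis, linear, from 0) of the 10 sensors in Fpr2 VKO (red) and Fpr2 f/f (blue) crypts; numbered points are libraries, horizontal lines group means and side bars the SD (n = 3 each). The groups overlap for each gene except Nod1, where the highest Fpr2 VKO library, at 10.9 CPM, lies below the lowest Fpr2 f/f library, at 11.2 CPM.

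Tlr2 (gene 24088, chromosome 3, 83836272 to 83841824, GRCm38.p6), the receptor for bacterial lipoproteins, had 7.84, 6.06 and 4.42 CPM in Fpr2 VKO libraries 1, 2 and 3, against 4.10, 6.36 and 3.45 CPM in Fpr2 f/f libraries 1, 2 and 3. The groups overlapped, since Fpr2 f/f 2 lay above Fpr2 VKO 2 and 3. Its log2 fold change was 0.38 ± 0.31 (SE; 95% interval -0.30 to 1.07; adjusted p = 0.644 by edgeR). Without Fpr2 f/f 2 it was 0.70 (adjusted p = 0.197), and without Fpr2 f/f 1 and 3, which leaves 1 control library, it was 0.0033.

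Tlr4 (gene 21898, chromosome 4, 66827551 to 66846581), the receptor for lipopolysaccharide, was close to the limit of detection. It had 7, 8 and 2 counts in Fpr2 VKO libraries 1, 2 and 3, against 7, 4 and 1 counts in Fpr2 f/f libraries 1, 2 and 3. Pooled over the libraries of a group, that is 0.313 CPM in Fpr2 VKO (exact Poisson 95% interval 0.183 to 0.502) and 0.326 CPM in Fpr2 f/f (0.168 to 0.569), which cover counting error only. With no filter beyond 1 count, the log2 fold change of Tlr4 was -0.032 ± 0.74 (SE; adjusted p = 0.991 by edgeR). That SE is too wide to show a small or moderate difference. Its co-receptors were better covered: Cd14 had 17.7, 11.4 and 10.6 CPM in Fpr2 VKO libraries, against 7.86, 18.8 and 10.2 CPM in Fpr2 f/f libraries, and Ly96 (MD-2) had a log2 fold change of -0.072 ± 0.27 (adjusted p = 0.941 by edgeR).

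Tlr5 (gene 53791, chromosome 1, 182954752 to 182976044), the flagellin receptor, had the lowest fold change of the 9 tested genes. It had 1.86, 0.912 and 0.896 CPM in Fpr2 VKO libraries 1, 2 and 3, against 3.06, 0.983 and 4.23 CPM in Fpr2 f/f libraries 1, 2 and 3. Fpr2 f/f 1 and 3 were high, and Fpr2 f/f 2 lay among the Fpr2 VKO libraries, below Fpr2 VKO 1. These values rest on few reads, 33, 17 and 16 counts in Fpr2 VKO libraries and 35, 15 and 43 counts in Fpr2 f/f libraries. The log2 fold change was -1.14 ± 0.53 (95% interval -2.31 to 0.020; adjusted p = 0.369 by edgeR).

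The call for Tlr5 turned on which libraries were used. Without Fpr2 f/f 2 Tlr5 was called lower, at -1.56 (adjusted p = 0.0455 by edgeR). In that setting 955 of 13247 genes tested were called, against 2 of 12943 with all 6 libraries. Without Fpr2 f/f 2 and Fpr2 VKO 1 Tlr5 was called lower at -1.99 (adjusted p = 0.0219 by edgeR, the lowest over its alternatives, where the highest was 0.921 without Fpr2 f/f 3). With the pair Fpr2 f/f 2 and Fpr2 VKO 1 left out 920 of 13030 genes tested were called. Calls in these settings were thus not particular to Tlr5. Within that pair alone Fpr2 VKO 1 lay above Fpr2 f/f 2 by 0.84 on the log2 scale, with no test. Without Fpr2 f/f 1 and 3 the value turned to 0.37 (adjusted p = 0.876 by edgeR), against 1 control library.

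Some transcripts of other cell types were, like Tlr5, highest in Fpr2 f/f 1 and 3. The list of 13 T cell and intraepithelial lymphocyte genes summed to 60.1, 69.3 and 73.3 CPM in Fpr2 VKO libraries 1, 2 and 3, against 251.9, 66.1 and 198.0 CPM in Fpr2 f/f libraries 1, 2 and 3. The list of 8 B and plasma cell genes summed to 13.8, 8.32 and 7.61 CPM in Fpr2 VKO libraries, against 49.7, 11.1 and 32.9 CPM in Fpr2 f/f libraries. On both lists Fpr2 f/f 1 and 3 were the highest libraries and Fpr2 f/f 2 lay within the range of the Fpr2 VKO libraries, as for Tlr5. Among the Fpr2 VKO libraries the T cell list did not follow Tlr5, being lowest in Fpr2 VKO 1, where Tlr5 was highest. Itgax, the integrin CD11c of dendritic cells, had 1.13, 1.18 and 1.23 CPM in Fpr2 VKO libraries and 4.63, 0.852 and 3.45 CPM in Fpr2 f/f libraries. The macrophage and dendritic cell list that holds Itgax did not share this order in its sum, at 49.1, 37.4 and 25.4 CPM in Fpr2 VKO libraries and 46.5, 44.6 and 33.9 CPM in Fpr2 f/f libraries. Itgam made up the largest part of that sum in each library. Single members differed. Csf1r, Lyz2, Cx3cr1, Cybb, Mrc1 and Tyrobp were, like Itgax, highest in Fpr2 f/f 1 and 3, most of them on few counts. Itgam, Cd68, Adgre1, C1qa, C1qb and C1qc were not, and Cd68 was lowest in Fpr2 f/f 1 and 3. Irf5, a transcription factor downstream of Myd88 that is abundant in myeloid and B cells, had 1.18, 0.697 and 0.392 CPM in Fpr2 VKO libraries and 2.18, 0.852 and 3.25 CPM in Fpr2 f/f libraries. The part of these cells in the Tlr5 values was not tested, and neither was that of Paneth cells, whose list was lower in each Fpr2 VKO library than in any Fpr2 f/f library.

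**Figure D2:**
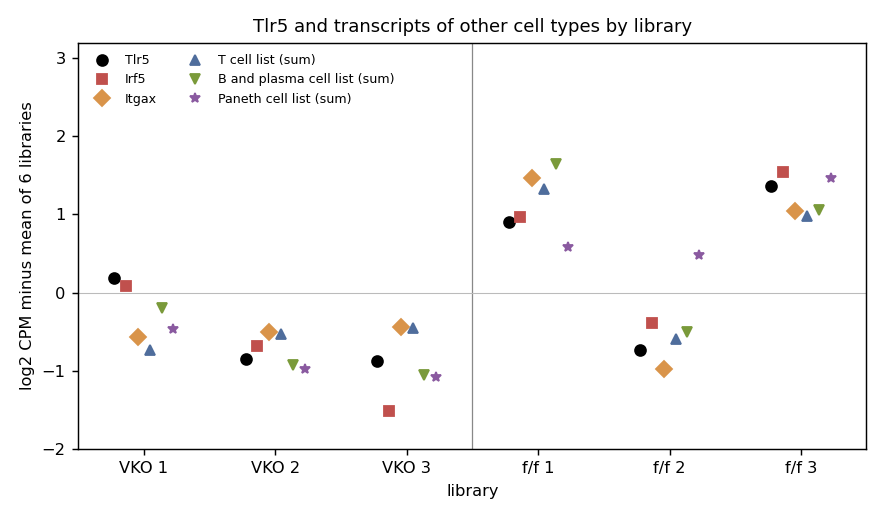
Log2 CPM minus the mean of the 6 libraries (y axis) of Tlr5, Irf5 and Itgax and of the summed T cell, B and plasma cell and Paneth cell lists, by library (x axis; Fpr2 VKO left, Fpr2 f/f right). Tlr5 stands at 0.90 and 1.37 in Fpr2 f/f 1 and 3 and at -0.74 in Fpr2 f/f 2, with the same signs as the lymphocyte lists in those libraries, whereas in Fpr2 VKO 1 Tlr5 is at 0.18 and the T cell list at -0.74, and the Paneth list is above its mean in each Fpr2 f/f library.

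Macrophage and neutrophil transcripts were scarce in these crypts. The list of 13 macrophage and dendritic cell genes summed to 25.4 to 49.1 CPM in Fpr2 VKO libraries and 33.9 to 46.5 CPM in Fpr2 f/f libraries, with Itgam the highest member, at 16.7 to 40.7 CPM in Fpr2 VKO libraries and 15.7 to 34.6 CPM in Fpr2 f/f libraries. Adgre1 (F4/80), a defining macrophage marker, had 0, 2 and 1 counts in Fpr2 VKO libraries and 0 counts in each Fpr2 f/f library. Of the neutrophil list 6 of 8 genes were in the table and summed to 3.53 to 4.29 CPM in Fpr2 VKO libraries and 2.75 to 4.73 CPM in Fpr2 f/f libraries, led by Cxcr2. Fibroblast and muscle genes summed to 15.7 to 22.5 CPM in Fpr2 VKO libraries and 19.6 to 29.1 CPM in Fpr2 f/f libraries.

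Tlr3 (gene 142980, chromosome 8, 45395665 to 45411075), the endosomal receptor for double-stranded RNA, had 25.2, 22.7 and 18.5 CPM in Fpr2 VKO libraries 1, 2 and 3, against 27.5, 18.4 and 19.6 CPM in Fpr2 f/f libraries 1, 2 and 3. The groups overlapped over nearly their whole range. For Tlr3 the log2 fold change was 0.021 ± 0.20 (95% interval -0.43 to 0.47; adjusted p = 0.978 by edgeR), and its sign changed under several alternatives. Reads of an antisense gene, Gm45542, that covers 7.32% of the exonic bases of Tlr3 could not be told apart, since the counting is not stated to use strand.

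Myd88 (gene 17874, chromosome 9, 119335934 to 119340018), the adaptor of most Toll-like receptors, had 37.9, 29.8 and 32.9 CPM in Fpr2 VKO libraries 1, 2 and 3, against 31.2, 43.7 and 33.3 CPM in Fpr2 f/f libraries 1, 2 and 3. The groups overlapped, with Fpr2 f/f 2 and Fpr2 VKO 1 on top. For Myd88 the log2 fold change was -0.11 ± 0.18 (95% interval -0.51 to 0.29; adjusted p = 0.853 by edgeR), turning to 0.065 without Fpr2 f/f 2. Acaa1a, on the opposite strand, covers 11.3% of the exonic bases of Myd88, so reads there are uncertain.

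Nod1 (gene 107607, chromosome 6, 54923942 to 54972674), which detects peptidoglycan fragments that carry diaminopimelic acid, was the 1 tested gene of the set whose groups did not overlap. It had 10.9, 8.64 and 5.93 CPM in Fpr2 VKO libraries 1, 2 and 3, against 14.0, 11.2 and 13.8 CPM in Fpr2 f/f libraries 1, 2 and 3. The nearest libraries of the groups were Fpr2 VKO 1 and Fpr2 f/f 2. Over all tested genes 17.3% had groups that did not overlap, namely 6.99% with Fpr2 VKO entirely above Fpr2 f/f and 10.3% with Fpr2 VKO entirely below. The means were 8.51 ± 2.51 CPM in Fpr2 VKO and 13.0 ± 1.54 CPM in Fpr2 f/f (SD, n = 3 each). The log2 fold change was -0.61 ± 0.24 (95% interval -1.14 to -0.073; unadjusted p = 0.0296 and adjusted p = 0.303 by edgeR).

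Nod1 stayed negative in each alternative, at -0.83 to -0.40 with 1 library left out. As its groups did not overlap, leaving libraries out could hardly turn the sign, so the kept sign adds nothing to that. It was -0.92 without Fpr2 f/f 2 and Fpr2 VKO 1 (adjusted p = 0.0575 by edgeR, the lowest over its alternatives, where the highest was 0.865), -0.034 within that pair and -0.34 without Fpr2 f/f 1 and 3. Its profile over the 6 libraries was most like those of Trp53inp2, an autophagy regulator, 2900026A02Rik and Mcf2l, with a root-mean-square difference in centred log2 CPM of 0.0562, 0.0675 and 0.0777. The libraries are few, so many genes lie close to any profile.

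Nod2 (gene 257632, chromosome 8, 88647315 to 88688474), the muramyl dipeptide sensor, had 2.20, 1.66 and 1.57 CPM in Fpr2 VKO libraries 1, 2 and 3, against 2.10, 2.95 and 1.58 CPM in Fpr2 f/f libraries 1, 2 and 3. The groups overlapped, with Fpr2 f/f 2 highest. For Nod2 the log2 fold change was -0.30 ± 0.35 (95% interval -1.08 to 0.48; adjusted p = 0.768 by edgeR), on 28 to 39 counts in Fpr2 VKO libraries and 16 to 45 counts in Fpr2 f/f libraries. Without Fpr2 f/f 2 it was -0.018. The Paneth list was lower in each Fpr2 VKO library than in any Fpr2 f/f library, which Nod2 was not. Fpr2 f/f 3 had the highest Paneth sum, 160510 CPM, and the lowest Nod2 level of the Fpr2 f/f libraries. The part of Paneth cells in the Nod2 values was not tested.

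Ripk2 (gene 192656, chromosome 4, 16122732 to 16163678), the kinase that Nod1 and Nod2 share, had 3.55, 4.67 and 2.97 CPM in Fpr2 VKO libraries 1, 2 and 3, against 4.80, 2.62 and 2.76 CPM in Fpr2 f/f libraries 1, 2 and 3. The highest library was a control and so were the lowest libraries. For Ripk2 the log2 fold change was 0.14 ± 0.33 (95% interval -0.59 to 0.87; adjusted p = 0.900 by edgeR).

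Nlrp6 (gene 101613, chromosome 7, 140920902 to 140929192), an inflammasome sensor of the gut epithelium, was the most abundant gene of the set by CPM. It had 471, 374 and 352 CPM in Fpr2 VKO libraries 1, 2 and 3, against 321, 485 and 363 CPM in Fpr2 f/f libraries 1, 2 and 3. The means were 399 ± 63.3 CPM in Fpr2 VKO and 389.9 ± 85.3 CPM in Fpr2 f/f (SD, n = 3 each), a difference well inside the spread. The log2 fold change was 0.031 ± 0.21 (95% interval -0.44 to 0.50; adjusted p = 0.969 by edgeR). Goblet cell genes were lower in Fpr2 VKO in 11 of 11 tested members of the list by sign, with 0 called by edgeR and 4 by DESeq2, and 9 had an unadjusted edgeR p below 0.05, where 2.4% of all genes were called lower by DESeq2 and 9.63% were lower at that edgeR p.

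Pycard (gene 66824, chromosome 7, 127991373 to 127993867), the adaptor that joins inflammasome sensors to caspase-1, had 407, 318 and 358 CPM in Fpr2 VKO libraries 1, 2 and 3, against 203, 491 and 307 CPM in Fpr2 f/f libraries 1, 2 and 3. The Fpr2 VKO libraries lay inside the range of the Fpr2 f/f libraries. The SD was 44.7 CPM in Fpr2 VKO and 145.8 CPM in Fpr2 f/f. The log2 fold change was 0.11 ± 0.28 (95% interval -0.51 to 0.74; adjusted p = 0.908 by edgeR), and it ran from -0.11 without Fpr2 f/f 1 to 0.51 without Fpr2 f/f 2. Gm45205, on the opposite strand, covers 12.8% of its exonic bases by GENCODE.

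**Figure D3:**
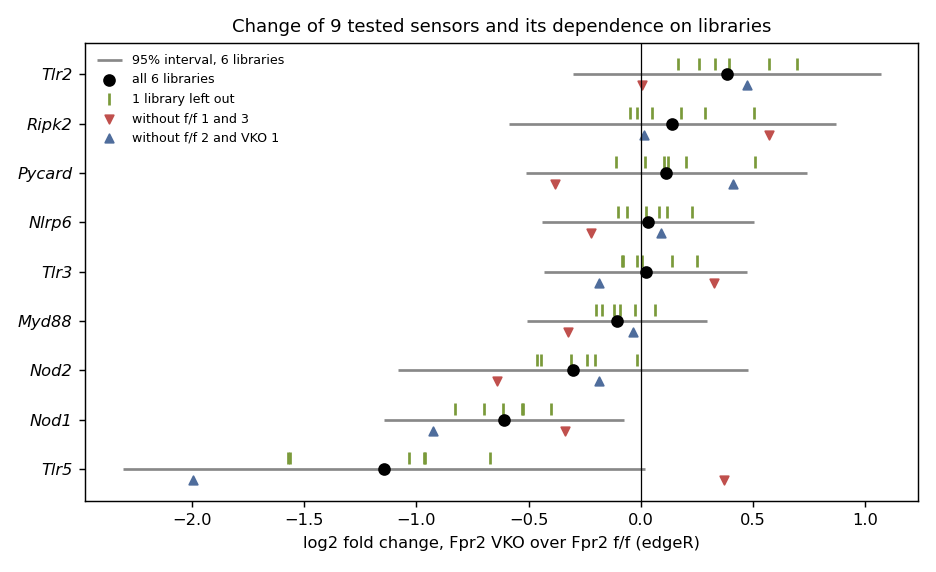
EdgeR log2 fold change of Fpr2 VKO over Fpr2 f/f (x axis) for the 9 tested sensors (y axis), with black points and grey 95% intervals from all 6 libraries, green ticks with 1 library left out, and triangles without Fpr2 f/f 1 and 3 or without Fpr2 f/f 2 and Fpr2 VKO 1. Tlr5 spans -1.99 to 0.37 over these settings. Nod1 lies below 0 in each, which follows from its groups not overlapping.

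A pattern across libraries, noticed after the values were seen, cut across genotype. In 5 of the 9 tested genes, Tlr2, Myd88, Nod2, Nlrp6 and Pycard, the highest libraries were Fpr2 VKO 1 and Fpr2 f/f 2, the pair that Dbp, Arntl, Per3, Ciart and Npas2, but not Nr1d1, set apart. Over all tested genes that pair was highest in 10.9%. The same held for 3 of 8 tested genes among the other Toll-like receptors and co-receptors, Cd14, Unc93b1 and Cnpy3, and for 6 of 13 tested epithelial targets of bacterial sensing, Reg3b, Reg3g, Duox2, Duoxa2, Pigr and Ccl28. Reg3g, an antibacterial lectin whose expression depends on Myd88, had 2341, 1400.3 and 1934 CPM in Fpr2 VKO libraries 1, 2 and 3, against 2102, 2531 and 1758 CPM in Fpr2 f/f libraries 1, 2 and 3. In the other pathway lists it was 0 of 16 among adaptors and kinases, 0 of 8 among brakes, 3 of 14 among NOD partners, 2 of 17 among other NLR and inflammasome genes and 2 of 13 among NF-kB genes. Of the 8 epithelial markers 3 had this pair on top, Cdh1, Krt8 and Cldn7, while Vil1 and Krt20 were lowest in these same libraries. The part of epithelial content or of the clock in the pattern was not tested.

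**Figure D4:**
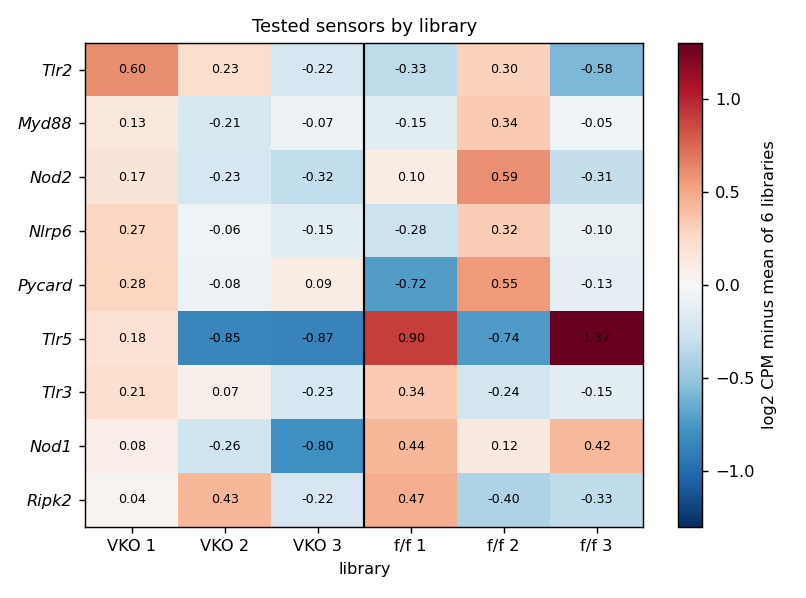
Log2 CPM minus the mean of the 6 libraries (colour and printed value) for the 9 tested sensors (rows) in Fpr2 VKO (left) and Fpr2 f/f (right) libraries. The 5 upper rows are those where Fpr2 VKO 1 and Fpr2 f/f 2 are the highest libraries. Pycard, for example, is at 0.28 in Fpr2 VKO 1 and 0.55 in Fpr2 f/f 2.

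The promoters of these 5 genes are shown because the genes had the same libraries on top, a pair that several clock genes set apart. The sequences are the 250 bases before the start that the promoter table uses, on the strand of the gene, from RefSeq for GRCm38.p6: Tlr2 chr3:83841609-83841858 (minus strand), Myd88 chr9:119340019-119340268 (minus), Nod2 chr8:88647097-88647346 (plus), Nlrp6 chr7:140920652-140920901 (plus) and Pycard chr7:127993868-127994117 (minus). For Tlr2 and Nod2 that start lies inside the gene span given above, so the Tlr2 window lies mostly, and the Nod2 window in small part, within the gene as annotated. The windows of Myd88, Nlrp6 and Pycard end at the edge of the span. Capitals mark motif matches.
Tlr2: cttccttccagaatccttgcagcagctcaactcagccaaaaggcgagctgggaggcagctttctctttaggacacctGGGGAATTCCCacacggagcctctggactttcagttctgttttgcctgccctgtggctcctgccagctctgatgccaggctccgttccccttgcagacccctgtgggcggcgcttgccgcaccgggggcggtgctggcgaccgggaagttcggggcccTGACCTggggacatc
Myd88: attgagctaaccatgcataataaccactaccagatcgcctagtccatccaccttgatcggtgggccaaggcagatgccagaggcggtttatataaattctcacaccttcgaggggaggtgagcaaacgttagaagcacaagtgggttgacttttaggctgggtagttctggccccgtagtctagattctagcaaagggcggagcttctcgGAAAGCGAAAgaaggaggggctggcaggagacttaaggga
Nod2: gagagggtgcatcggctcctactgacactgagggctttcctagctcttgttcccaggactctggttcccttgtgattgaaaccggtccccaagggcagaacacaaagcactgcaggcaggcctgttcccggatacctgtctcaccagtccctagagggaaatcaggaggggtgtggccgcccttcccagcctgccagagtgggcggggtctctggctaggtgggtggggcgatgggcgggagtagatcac
Nlrp6: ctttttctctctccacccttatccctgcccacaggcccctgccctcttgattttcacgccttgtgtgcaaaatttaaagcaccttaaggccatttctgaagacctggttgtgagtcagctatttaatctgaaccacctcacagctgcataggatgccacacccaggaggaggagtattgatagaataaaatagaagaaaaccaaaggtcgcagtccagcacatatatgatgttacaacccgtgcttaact
Pycard: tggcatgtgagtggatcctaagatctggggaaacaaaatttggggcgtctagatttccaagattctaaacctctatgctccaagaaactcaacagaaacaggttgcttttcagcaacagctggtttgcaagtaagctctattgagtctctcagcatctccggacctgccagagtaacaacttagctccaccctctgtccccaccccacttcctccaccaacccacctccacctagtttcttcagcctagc

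The motifs searched, on both strands, were the E-box CACGTG bound by clock factors, the D-box TTATGTAA bound by Dbp, the nuclear receptor half-site AGGTCA, the interferon-response motif (GAAA and GAAA again after any 2 bases) and the NF-kB consensus. None of the 5 windows held an E-box or a D-box, which occur in 6.02% and 0.819% of the 32851 promoter windows of that length. Tlr2 held the NF-kB consensus in overlapping matches at positions -173 to -163 from the start (3.9% of all windows hold it) and a half-site at positions -15 to -10 (14.0% of all windows). Myd88 held the interferon-response motif at positions -40 to -31 (2.98% of all windows). Nod2, Nlrp6 and Pycard held none of these motifs. Windows were found for 8 of the 10 genes. Among the others Tlr3 held an NF-kB match, and Tlr5 and a downstream start of Nod1 held a half-site. The starts used for Tlr3, Tlr5 and Nod1 also lie inside their gene spans. A match is only a description of the letters, and no match says nothing about a factor.

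The wider pathways also gave no call by edgeR. Of 118 genes listed as other receptors, adaptors, brakes, NOD partners, inflammasome genes, NF-kB genes and targets, 115 were in the table and 89 were tested. By edgeR 0 of the 89 were called, against 0.0155% of all genes. At an unadjusted p under 0.05 stood 12, against 13.7% of all genes, limma-voom called 0 and DESeq2 called 3, against 2.69% of all genes. The groups did not overlap for 14 of the 89, against 17.3% of all genes.

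Among the other Toll-like receptors and co-receptors 3 of 8 tested genes were positive and 5 negative, with a median log2 fold change of -0.021. Tlr1, the partner of Tlr2 for triacylated lipoproteins, had 14.7, 19.9 and 10.02 CPM in Fpr2 VKO libraries 1, 2 and 3, against 8.47, 11.2 and 6.40 CPM in Fpr2 f/f libraries 1, 2 and 3. The groups overlapped (log2 0.76 ± 0.28, adjusted p = 0.266 by edgeR), and reads of Tlr1 and its close relative Tlr6 may be split between them, as their counts are not whole numbers. Hsp90b1, the chaperone that folds Toll-like receptors, did not overlap, with 774 ± 55.4 CPM in Fpr2 VKO and 560 ± 92.8 CPM in Fpr2 f/f (SD, n = 3 each; log2 0.47 ± 0.20, adjusted p = 0.344 by edgeR). Tlr9, the receptor for bacterial DNA, was too low to test, with 1, 2 and 2 counts in Fpr2 VKO libraries and 8, 0 and 9 counts in Fpr2 f/f libraries. Most of its reads were in Fpr2 f/f 1 and 3, where the T cell list, the B cell list and Itgax were also high. The source of these reads was not tested.

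Adaptors and kinases of the pathway had a median of -0.0029 over 16 tested genes, 8 positive and 8 negative. Irak1, the kinase recruited by Myd88, did not overlap between groups, with 81.5 ± 6.66 CPM in Fpr2 VKO and 102.8 ± 2.51 CPM in Fpr2 f/f (log2 -0.34 ± 0.15, adjusted p = 0.350 by edgeR). Irf5, given beside Tlr5, had a log2 fold change of -1.43 ± 0.55 (adjusted p = 0.284 by edgeR).

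The brakes of Toll-like receptor signalling had a median of -0.11 over 8 tested genes, 6 of them negative. Irak3, a kinase-dead relative that damps Myd88 signalling, had 6.15, 5.47 and 5.04 CPM in Fpr2 VKO libraries 1, 2 and 3, against 13.2, 6.95 and 14.0 CPM in Fpr2 f/f libraries 1, 2 and 3. Each Fpr2 VKO library lay below each Fpr2 f/f library, and Fpr2 f/f 2 was the nearest. Irak3 was not called by edgeR (log2 -1.02 ± 0.28, adjusted p = 0.160) and was called lower by DESeq2 (adjusted p = 0.0436). Tollip, which sequesters Irak1, had 51.7 ± 2.28 CPM in Fpr2 VKO and 60.6 ± 5.004 CPM in Fpr2 f/f (log2 -0.23 ± 0.15, adjusted p = 0.531 by edgeR).

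NOD signalling partners had a median of -0.019 over 14 tested genes, 7 positive and 7 negative, with 0 at an unadjusted p under 0.05. Slc46a3, a lysosomal transporter, had 8.40 ± 1.75 CPM in Fpr2 VKO and 13.6 ± 6.26 CPM in Fpr2 f/f (log2 -0.68 ± 0.34, adjusted p = 0.411 by edgeR). Card9, an adaptor that works with Nod2, had 2.79 ± 0.565 CPM in Fpr2 VKO and 2.08 ± 0.694 CPM in Fpr2 f/f (adjusted p = 0.639 by edgeR).

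The other NLR sensors and inflammasome effectors had the highest list median, 0.12 over 17 tested genes, 11 of them positive. That median rested on single libraries, at -0.0019 without Fpr2 f/f 2, 0.019 without Fpr2 VKO 1 and 0.26 without Fpr2 f/f 1. Nlrp9b, an inflammasome sensor of mouse intestinal epithelium, had 8.97, 17.4 and 11.6 CPM in Fpr2 VKO libraries 1, 2 and 3, against 8.30, 3.999 and 4.33 CPM in Fpr2 f/f libraries 1, 2 and 3. The groups did not overlap, but Fpr2 VKO 1 and Fpr2 f/f 1 were close. It was not called by edgeR (log2 1.2 ± 0.33, adjusted p = 0.167) and was called higher by DESeq2 (adjusted p = 0.0266). Naip1, which with Nlrc4 detects needle proteins of bacterial secretion systems, had 87.5 ± 8.12 CPM in Fpr2 VKO and 63.9 ± 5.99 CPM in Fpr2 f/f, without overlap (log2 0.45 ± 0.15, adjusted p = 0.232 by edgeR). Reads of the Naip copies could be split among them, so single values are uncertain. Il1b had 1, 1 and 0 counts in Fpr2 VKO libraries and 1, 0 and 3 counts in Fpr2 f/f libraries.

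NF-kB subunits and inhibitors had a median of 0.0070 over 13 tested genes, 8 positive and 5 negative. Nfkb2 had 38.9 ± 5.64 CPM in Fpr2 VKO and 52.4 ± 2.99 CPM in Fpr2 f/f (log2 -0.43 ± 0.16, adjusted p = 0.266 by edgeR), and the kinase Ikbkb had 66.0 ± 10.47 CPM in Fpr2 VKO and 49.6 ± 2.85 CPM in Fpr2 f/f (log2 0.41 ± 0.16, adjusted p = 0.301 by edgeR). Neither gene overlapped between the groups, and they lay on opposite sides.

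Epithelial targets of bacterial sensing had a median of 0.055 over 13 tested genes, 7 positive and 6 negative. Ang4, an antimicrobial ribonuclease of Paneth cells, had 1320, 858 and 725 CPM in Fpr2 VKO libraries 1, 2 and 3, against 2628, 2137 and 4594 CPM in Fpr2 f/f libraries 1, 2 and 3. Each Fpr2 VKO library lay below each Fpr2 f/f library, as for the Paneth list, which also holds Ang4. It was not called by edgeR (log2 -1.69 ± 0.35, adjusted p = 0.0952) and was called lower by DESeq2 (adjusted p = 4.25e-06). Tnfaip2 had 1.33 ± 0.178 CPM in Fpr2 VKO and 2.52 ± 0.346 CPM in Fpr2 f/f (log2 -0.91 ± 0.32, adjusted p = 0.249 by edgeR). Reg3b and Reg3g, the lectins induced by bacteria, had log2 fold changes of -0.041 ± 0.31 and -0.17 ± 0.27 (adjusted p = 0.972 and 0.835 by edgeR).

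**Figure D5:**
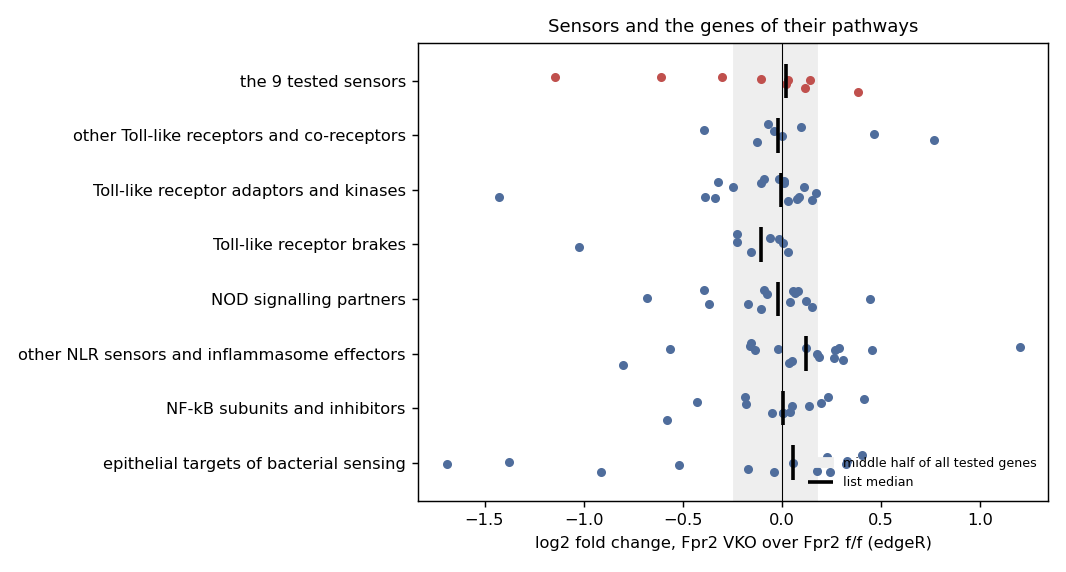
EdgeR log2 fold change of Fpr2 VKO over Fpr2 f/f (x axis) for tested genes of the sensors (red) and of 7 pathway lists (blue); each point is a gene, black bars are list medians and the grey band runs between the quartiles of all tested genes, -0.24 and 0.17. List medians lie between -0.11 and 0.12; the band describes single genes and is no measure of the spread of medians.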

How the data were processed

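Messenger RNA of 6 crypt libraries was sequenced with 50 bp single-end reads, per the labels' protocols. The build was mm10, per the submitters' processing notes, and no aligner, counter or annotation is given in the sources used here. The authors deposited an estimated count per gene and library, not normalised. Between 31.1% and 35.2% of values in a library are not whole, and all were rounded before testing. No 2 libraries were duplicates. Counts pooled over a group carry exact Poisson intervals, and a count of 3 was taken as the floor.

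Genes passing filterByExpr were tested with edgeR 4.0.16 (TMM, glmQLFit with robust estimation, glmQLFTest) in R 4.3.3, Fpr2 VKO over Fpr2 f/f, with Benjamini-Hochberg adjustment over all genes tested and a threshold of 0.05. The SE is the log2 fold change over the root of F, and the 95% interval uses the fit's degrees of freedom. DESeq2 1.42.0, which gave no adjusted p for 251 genes, and limma-voom (limma 3.58.1) were alternatives, as were scaling, filters, the replicate number as a block and libraries left out. The tests were also run on simulated counts. These were drawn independently for each library, so they could not check the tests against patterns that libraries share. Levels per kilobase used the longest GENCODE vM21 transcript, since the planned RefSeq transcript lengths were not used here. Coordinates are from RefSeq for GRCm38.p6, the assembly of mm10. Figures used matplotlib 3.10.9.

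The sensors, the pathway and marker lists and the tests were chosen with earlier results of these data known. All sensors are named; from each pathway list the 2 tested genes with the smallest p are named, and 3 genes most like the sensor with the smallest p. From marker lists only the highest gene by mean level and genes at 0 were to be named. Cd14, Ly96, Tlr9, Il1b, Reg3b, Reg3g and the macrophage and dendritic cell genes other than Itgam are outside this rule. So are the epithelial markers, the clock genes and the genes named for their highest libraries. All of these were picked with their values in view. Same-numbered libraries were not paired, since the replicate numbers are not stated to pair libraries. Correlations of their deviations from the group means cannot settle whether they were.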

Additional observations from a re-analysis of the deposited data

How the results depend on the processing

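Calls over all genes moved strongly with the processing: 2 by edgeR, 0 with DESeq2 size factors, 1 by limma-voom, 342 by DESeq2, 67 with no filter beyond 1 count, 0 to 955 with single libraries left out (the highest without Fpr2 f/f 2), 12 without Fpr2 f/f 1 and 3, and 920 without Fpr2 f/f 2 and Fpr2 VKO 1. The number of sensors called was 0, and 0 to 1 with single libraries left out and 1 without Fpr2 f/f 2 and Fpr2 VKO 1, Tlr5 in both cases. Sensors at an unadjusted p under 0.05 numbered 1 by edgeR with all 6 libraries. They numbered 2 with no filter, by DESeq2, and without Fpr2 f/f 2 and Fpr2 VKO 1, and 0 to 4 with single libraries left out. The share of all genes at that p was taken for the main fit only. Counts in the other settings are therefore no result about the sensors. The replicate block, on numbers whose same-numbered deviations correlated at -0.18, -0.27 and 0.068, gave 39 genes called, 0 sensors called and 2 at an unadjusted p under 0.05. The median of the sensors was -0.22 without Fpr2 f/f 1 and 3.

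Signs turned without Fpr2 f/f 1 and 3 for Tlr5 (0.37), Nlrp6 (-0.22) and Pycard (-0.38), without Fpr2 f/f 2 and Fpr2 VKO 1 for Tlr3 (-0.19), and within that pair, an alternative chosen after the data were seen, for Tlr5 (0.84), Nlrp6 (-0.045) and Pycard (-0.27). With single libraries left out Nlrp6 ran from -0.10 to 0.23, Pycard from -0.11 to 0.51, Tlr3 from -0.083 to 0.25, Myd88 from -0.20 to 0.065 and Ripk2 from -0.049 to 0.50. List medians ran from -0.13 to 0.19 for epithelial targets, -0.0019 to 0.26 for other NLR genes, -0.18 to -0.048 for brakes, -0.069 to 0.034 for adaptors, -0.067 to 0.084 for other receptors, -0.040 to 0.037 for NOD partners and 0.00077 to 0.093 for NF-kB genes. The cause was not tested. Tlr2, Nod1 and Nod2 kept their sign in all 16 alternatives. For Nod1, whose groups did not overlap, leaving libraries out could hardly turn it. Depth limits Tlr4, Tlr5 and Nod2.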

Other observations

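Among genes of the pathways not described above, the flagellin sensors of the Naip family and their partner Nlrc4 had more CPM than Tlr5 in each library. These values were not scaled to transcript length, so they do not rank the genes. Naip5, which binds flagellin in the cytosol and signals through Nlrc4, had 77.4, 113 and 82.2 CPM in Fpr2 VKO libraries 1, 2 and 3, against 118.4, 57.4 and 87.1 CPM in Fpr2 f/f libraries 1, 2 and 3. Naip6, a further flagellin sensor, had 111.7, 153.9 and 91.1 CPM in Fpr2 VKO libraries and 206.7, 76.6 and 108.2 CPM in Fpr2 f/f libraries. Nlrc4 had 48.2, 56.7 and 38.1 CPM in Fpr2 VKO libraries and 63.9, 34.9 and 46.3 CPM in Fpr2 f/f libraries. In each of these 3 genes Fpr2 f/f 1 was the highest library and Fpr2 f/f 2 the lowest, so the groups overlapped. Reads of the Naip copies could be split among them. Casp1, the protease that inflammasomes activate, had a log2 fold change of 0.29 ± 0.17 and Gsdmd, the pore protein it cleaves, -0.16 ± 0.17 (adjusted p = 0.487 and 0.732 by edgeR). These genes were chosen after their values were seen.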
